A study of Canis lupus familiaris with 31 samples.

Results

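Spontaneously raised fasting serum triglycerides (HTG) are common in the Miniature Schnauzer, without an endocrine disease behind them, and some affected dogs carry more cholesterol than others. Of the 31 dogs whose whole blood RNA was sequenced, 13 were HTG cases and 18 were controls, all client-owned, fasted Miniature Schnauzers with 1 library per dog. The 12 cases with a serum cholesterol value were divided at 300 mg/dl. The 6 dogs at or above it, case_02, case_03, case_04, case_06, case_07 and case_09, formed the higher cholesterol group, and the 6 dogs under it, case_05, case_08, case_10, case_11, case_12 and case_13, formed the lower cholesterol group. No cholesterol value was given for case_01, which was left out of the comparison. The dogs nearest to the threshold were case_07 just above it and case_08 just under it, and only 3 of the 6 dogs of the higher group, case_02, case_03 and case_06, exceeded the laboratory's reference interval. Every dog of both groups had HTG, and no gene was manipulated.

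Cells regulate their cholesterol through paired sensors. When membranes hold little sterol, the transcription factor SREBP2, escorted by SCAP and held back by the INSIG proteins, raises the enzymes of cholesterol synthesis and the uptake of lipoproteins. When oxysterols accumulate, the LXR receptors raise the efflux transporters ABCA1 and ABCG1 and the lipogenic enzyme SCD. Circulating leukocytes have both arms and meet plasma lipoproteins directly, while the liver, which sets plasma cholesterol, was not sampled. In bulk blood, fewer cells of a type and less RNA per cell cannot be told apart.

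The groups also differed in other respects. Triglycerides were higher in most dogs of the higher cholesterol group, so that the contributions of the 2 lipids cannot be fully told apart. Body condition scores, and dietary fat where known, were also mostly higher in that group. With body condition score as a covariate edgeR called 0 genes, and dietary fat was not tried as a covariate. The higher group had 5 males among 6 dogs and the lower group 3 (Fisher's exact test, two-sided, P = 0.545). Total counts ran from 16363134 to 22549113 in the higher group and from 20173918 to 34312116 in the lower group, and the mean log10 total was 0.106 lower in the higher group (two-sided exact permutation test, P = 0.026). This difference did not pass the threshold when case_06, case_07, case_09 or case_12 was left out (exact permutation tests, P = 0.0519 to 0.0606). Over 345 rows for small non-coding RNAs, 5 of the 12 dogs (case_05, case_06, case_07, case_09 and case_13) averaged 1.76 or more in log2 CPM (counts scaled to a common library size) and the other 7 averaged 1.31 or less. The high side held 3 dogs of the higher and 2 of the lower cholesterol group. Fits within 1 side, or with the side as a covariate, were chosen after seeing the data. Within the high side 833 of 13952 genes had an unadjusted P-value under 0.05 in edgeR, so that small P-values were more common there. Levels below are CPM after TMM normalization over all 31 dogs, log2 fold changes are higher minus lower cholesterol group, and standard errors (SE) are those implied by the test statistic.

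No gene was called between the cholesterol groups by the quasi-likelihood test of edgeR. Of 13774 genes tested, 0 (0%) reached an adjusted P-value of 0.05, and every adjusted P-value rounded to 1. At an unadjusted P-value under 0.05 there were 348 genes (2.53%), of which 175 (1.27%) had a higher level and 173 (1.26%) a lower level in the higher cholesterol group. Without case_03 the number was 653. The median log2 fold change over all tested genes was 0.0052, and 51.3% of the estimates were above 0. The 6 and 6 values did not overlap for 14 genes (0.102%), 9 of them with the higher level in the higher group. By limma-voom 0 genes were called as well, with 329 at an unadjusted P-value under 0.05. DESeq2 called 4 of the 22936 genes it tested (0.0174%), with 576 under 0.05 unadjusted. These were S1PR5 and MMP1, with the lower level in the higher cholesterol group, and RIMBP2 and CNN1, with the higher level. The same 4 genes had the smallest P-values in edgeR.

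S1PR5, a receptor for sphingosine-1-phosphate carried mainly by natural killer cells and other cytotoxic lymphocytes, was nearly undetected in the dogs with higher cholesterol. Its level was 0 CPM in case_06 and case_07, 0.0401 in case_04, 0.0785 in case_03, 0.327 in case_09 and 0.481 in case_02. In the lower cholesterol group it was 0.81 CPM in case_11, 1.48 in case_08, 1.85 in case_12, 2.24 in case_10, 2.51 in case_13 and 3.38 in case_05. The groups did not overlap, and the counts behind these levels were 0 to 9 in the higher and 17 to 75 in the lower group, so that the low group rests on few read pairs. The log2 fold change was −3.69 (SE 0.67, 95% interval −5.13 to −2.25, unadjusted P = 8.2e-05) in edgeR, and DESeq2 gave an adjusted P-value of 2.48e-05. The controls spanned both groups, from 0.0987 to 2.61 CPM with a median of 1.14, and 14 of 18 lay above the highest dog of the higher group. In case_01, whose cholesterol was not known, the level was 3.77 CPM.

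Cytotoxic lymphocyte markers were looked at beside S1PR5. All 9 tested markers had negative estimates, from −0.85 to −0.02 on the log2 scale with a median of −0.41, and 0 of them had an unadjusted P-value under 0.05. CCL5, a chemokine of activated T and natural killer cells, had the largest estimate, −0.85 (SE 0.59, P = 0.172). It was −2.24 (P = 0.0168) with log10 triglycerides as a covariate, −2.28 (P = 0.00517) in the high and −0.22 (P = 0.688) in the low small RNA side, and −0.15 (P = 0.843) with the 3 dogs of highest cholesterol against 9, all unadjusted. The summed marker score, a mean log2 deviation from the 12 cases, ran from −0.845 to 0.397 in the higher and from −0.769 to 1.32 in the lower group, so that the groups overlapped over most of their range. With that score as a covariate, an alternative chosen after seeing the data, the edgeR estimate for S1PR5 was −3.41 (unadjusted P = 0.000202).

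MMP1, the interstitial collagenase, was at a lower level in the higher cholesterol group, and 2 dogs of the lower group had very high levels. The lower cholesterol group ran from 1.46 to 56 CPM with a median of 6.98, and case_11, at 47.9 CPM, and case_13, at 56 CPM, stood above the rest. The higher group ran from 0.477 to 1.99 CPM with a median of 0.795, and 5 of 6 dogs of the lower group lay above its highest dog. The estimate was −4.32 (SE 0.898, unadjusted P = 0.000295) and the adjusted P-value of DESeq2 was 0.00215. Controls reached from 0.231 to 30.7 CPM, with a median of 1.27, and 8 of 18 lay above all dogs of the higher group. With log10 triglycerides as a covariate the estimate was −2.74 (unadjusted P = 0.0296), and DESeq2 with this covariate no longer called the gene (adjusted P = 0.888).

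RIMBP2, a scaffold protein known from the presynaptic active zone, was the gene with the smallest P-value among those at a higher level in the higher cholesterol group. Its level was 3.3 to 11.2 CPM with a median of 5.29 in the higher group, the highest value being that of case_04. In the lower group it was 0.295 to 2.95 CPM with a median of 1.05, and case_10 was the highest. The ranges were separate, with all 6 dogs of the higher group above the lower group, and the log2 fold change was 2.30 (SE 0.453, unadjusted P = 0.000181, adjusted P = 0.000914 in DESeq2). Controls spread from 0.306 to 4.79 CPM around a median of 1.96, between the medians of the case groups, and 14 of 18 lay under the lowest dog of the higher group.

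CNN1, calponin of smooth muscle, was also separate between the groups, though by a narrow margin. The higher group ran from 6.06 CPM in case_07 to 19.0 in case_09, with a median of 9.23. The lower group ran from 2.31 CPM in case_12 to 6.00 in case_05, with a median of 3.20. The log2 fold change was 1.54 (SE 0.31, unadjusted P = 0.00022, adjusted P = 0.00378 in DESeq2), and the controls overlapped both ranges, from 1.70 to 15.1 CPM.

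**Figure D1:**
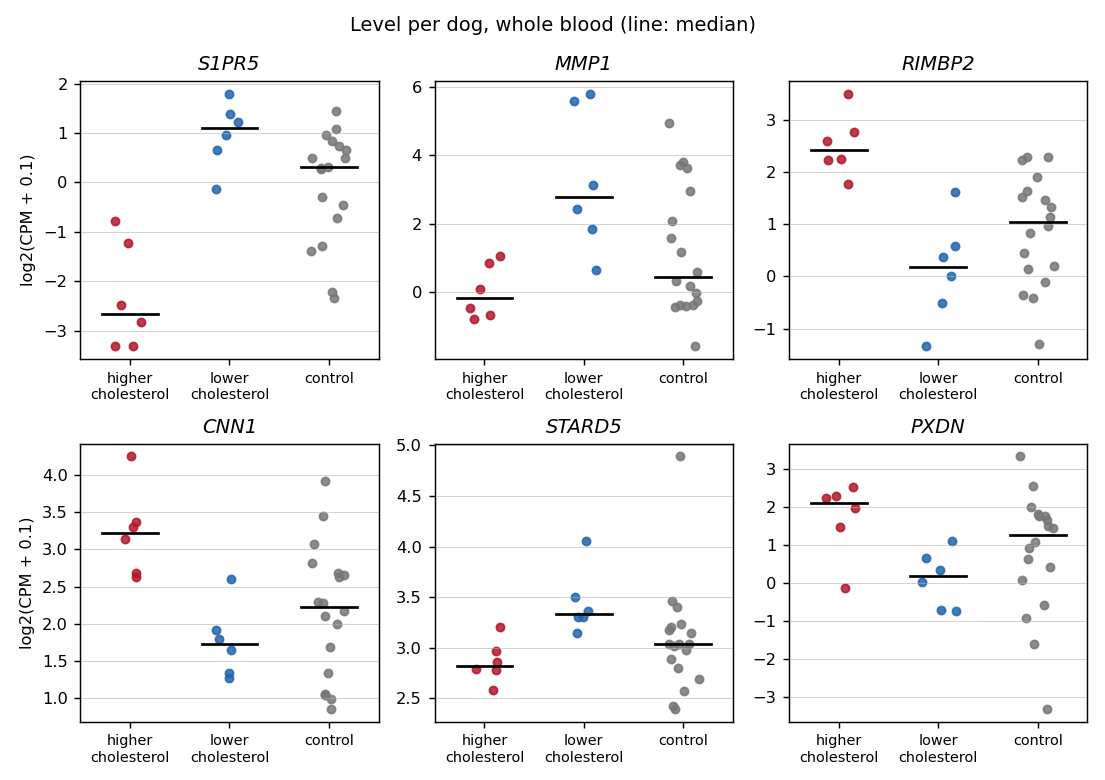
Level of 6 genes in each dog, as log2(CPM + 0.1), for the higher cholesterol cases (red), the lower cholesterol cases (blue) and the controls (grey), with the median as a line; the vertical scale differs between panels. The 2 case groups are separate for S1PR5, RIMBP2 and CNN1, overlap slightly for MMP1, STARD5 and PXDN, and the 18 controls spread over both in every panel.

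How far these 4 differences rested on single dogs or on the dividing line was examined by refitting. In edgeR the direction was kept in every alternative in which the gene was tested, and leaving out each dog in turn moved the log2 fold change from −4.49 to −3.46 for S1PR5, from −4.60 to −3.69 for MMP1, from 2.03 to 2.79 for RIMBP2 and from 1.25 to 1.77 for CNN1. DESeq2 called all 4 genes in each of the 12 fits without 1 dog, which were chosen after seeing the data, with the largest adjusted P-value at 0.046 for MMP1 and for CNN1. Without case_07 and case_08 the 4 edgeR estimates were −3.55, −4.35, 2.08 and 1.64. The dividing line mattered for the 2 genes at a higher level. When the 3 dogs with the highest cholesterol were set against the other 9, the estimate for RIMBP2 was 0.49 (P = 0.556) and that for CNN1 0.44 (P = 0.44), while S1PR5 stayed at −2.88 (P = 0.0433) and MMP1 at −3.59 (P = 0.042). Per 100 mg/dl of cholesterol as a number, the slopes were −1.46 log2 units for S1PR5 (P = 0.00622), −2.04 for MMP1 (P = 0.00848), 1.03 for RIMBP2 (P = 0.0205) and 0.60 for CNN1 (P = 0.0345), all unadjusted. With log10 triglycerides as a covariate DESeq2 gave CNN1 a log2 fold change of 1.57 (SE 0.439, adjusted P = 0.0845), beside 1.54 (SE 0.309) without it, so that the estimate stayed as large and its error grew. RIMBP2 had an adjusted P-value of 0.0325 and S1PR5 of 0.000717 in that fit. Within the small RNA sides, S1PR5 was at −4.65 in the high and −3.08 in the low side, RIMBP2 at 2.22 and 2.41, MMP1 at −4.45 and −4.46, and CNN1 at 1.38 and 1.5. A filter of at least 10 counts in every dog removed S1PR5, MMP1 and RIMBP2 from the test.

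**Figure D2:**
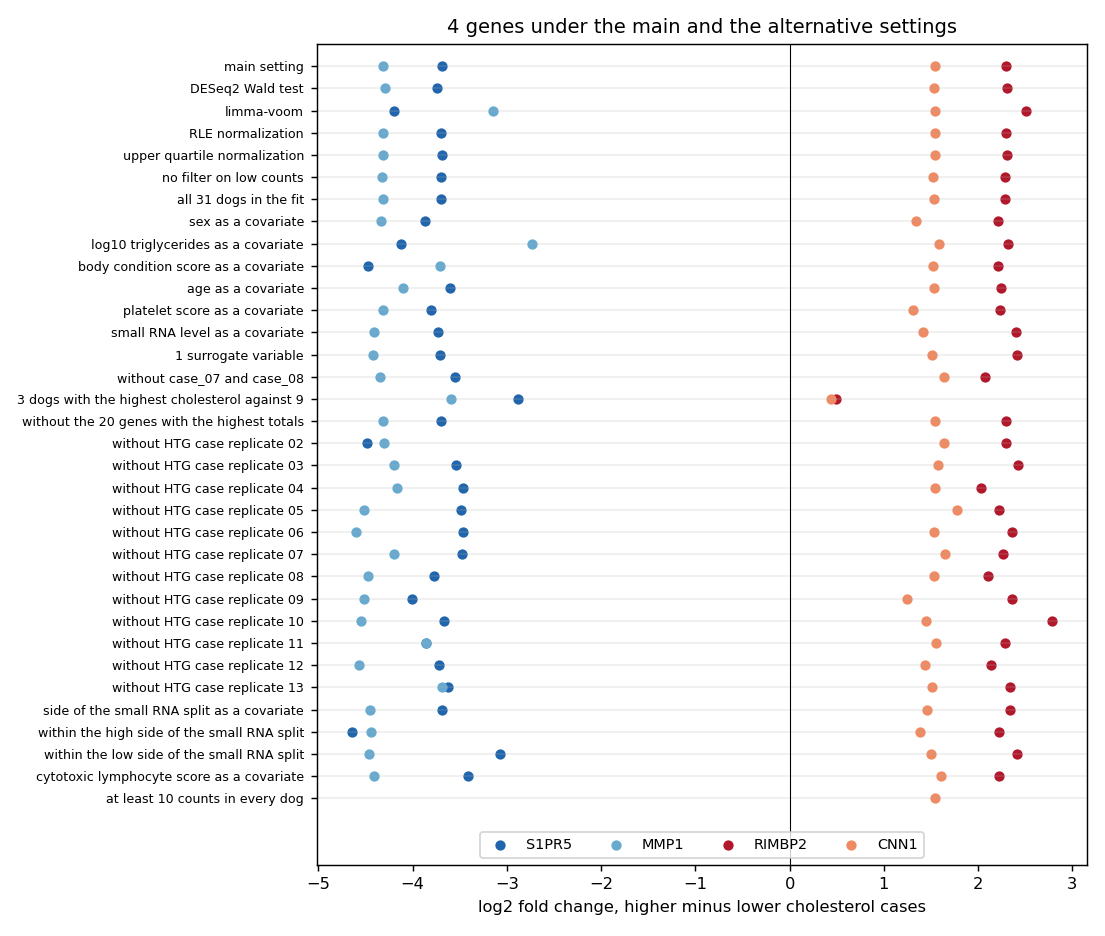
The log2 fold change (higher minus lower cholesterol cases, horizontal axis) of S1PR5, MMP1, RIMBP2 and CNN1 under the settings listed (vertical axis), from edgeR unless another tool is named. Points are estimates without error bars. The slope on cholesterol and the DESeq2 fits with a covariate or with fewer dogs are not plotted. All points of a gene lie on 1 side of 0, and RIMBP2 and CNN1 come nearest to 0, at 0.49 and 0.44, when the 3 dogs with the highest cholesterol are set against 9.

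The remaining genes with the smallest P-values were not called by either test. Those at a higher level in the higher cholesterol group included PXDN, peroxidasin, which cross-links collagen IV, with a median of 4.23 CPM against 1.04 and a log2 fold change of 1.77 (SE 0.444). DESeq2 gave PXDN an adjusted P-value of 0.185, of 0.0283 with the small RNA side as a covariate and of 0.000312 without case_07 and case_08, both chosen after seeing the data. In case_07 PXDN was at 0.817 CPM, the only dog of the higher group within the range of the lower one. LGR4, a receptor for R-spondins in the Wnt pathway, stood at 3.85 against 1.67 CPM in median, and MST1R, the receptor for macrophage-stimulating protein, at 1.11 against 0.349 CPM. SGSH, a lysosomal sulfatase of heparan sulfate breakdown, had medians of 5.92 and 4.44 CPM. TEP1, a protein of the telomerase complex, differed by 0.47, ZBTB8OS by 0.41, NPEPL1 by 0.42, SMAGP by 0.71 and CCIN, a protein of the sperm head, by 1.10. The remaining one, RF00003, is 1 of 60 rows with the name of the U1 spliceosomal RNA, and reads may have been divided among these near-identical copies.

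Genes at a lower level in the higher cholesterol group included STARD5, a lipid carrier related to the cholesterol carrier STARD4. STARD5 ran from 5.90 to 9.13 CPM in the higher group and from 8.77 to 16.5 CPM in the lower group, with 5 of 6 dogs of the lower group above the highest dog of the other. Its log2 fold change was −0.60 (SE 0.168, unadjusted P = 0.00318), while STARD4 itself had −0.09 (SE 0.191). The STARD4 estimate varied, at −0.41 (unadjusted P = 0.122) with log10 triglycerides as a covariate. It was −0.35 in the high and 0.13 in the low small RNA side. Separate ranges were seen for C3H5orf30, at 16.6 to 20.8 against 22 to 28.4 CPM, for TYMS, the thymidylate synthase of DNA replication, at 9.07 to 10.6 against 11.2 to 23.2 CPM, and for THTPA, a thiamine triphosphatase, at 3.13 to 7.83 against 8.62 to 9.51 CPM. POC1A, a centriole protein, and MXD3, a partner of MAX in the MYC network, differed by −0.57 and −0.58. NUPR1, a nuclear protein induced by stress, had medians of 0.47 and 1.61 CPM. The mitochondrial malic enzyme ME3 had −0.81, the semaphorin receptor PLXNA4 −0.49, and CCR6, a chemokine receptor of B cells and helper T cells, −0.52. PLXNA4 was called by DESeq2 with sex as a covariate (adjusted P = 0.00557). All 24 genes described here as having the smallest P-values in either direction kept their sign in every alternative with 2 groups in which they were tested, and none was called by edgeR in any of them. Of the 24, which were chosen by their P-values, 21 had an unadjusted P-value under 0.05 with log10 triglycerides as a covariate, 12 within the high and 16 within the low small RNA side, 14 with cholesterol as a number and 6 with the 3 dogs of highest cholesterol against 9.

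No gene of cholesterol synthesis differed detectably between the groups, and the intervals of several were wide. Of 20 enzymes 16 were tested, 6 had positive and 10 negative estimates, 0 had an unadjusted P-value under 0.05, and the median was −0.03. SQLE, squalene epoxidase, had −0.17 with an interval from −0.75 to 0.42, and 0.02 without case_11. The member with the largest estimate was LSS, lanosterol synthase, at 0.44 (SE 0.252, P = 0.106), which turned to −0.04 with log10 triglycerides as a covariate. HMGCS1 and IDI1 had no row of that symbol and were not analysed here.

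The LDL uptake arm did not differ detectably either. Of its 13 tested genes 4 had positive and 9 negative estimates, 0 had an unadjusted P-value under 0.05, and the median was −0.09. INSIG1, the SREBP anchor, had −0.21 (interval −0.54 to 0.12), and MYLIP, an LXR-induced ubiquitin ligase, had −0.19 (interval −0.50 to 0.11). INSIG1 was at −0.13 without case_06 and MYLIP at −0.09 without case_08. TMEM97, a sterol-regulated membrane protein, had the largest estimate, −0.35 (SE 0.418), which was −0.12 without case_07 and turned to 0.37 with the 3 dogs of highest cholesterol against 9.

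The list of LXR targets and cholesterol efflux also held the receptors themselves. Of its 15 tested genes 2 had an unadjusted P-value under 0.05, against 2.53% of all genes. Both had the lower level in the higher cholesterol group. ABCG1, which exports cholesterol to HDL, ran from 4.59 to 9.94 CPM with a median of 6.09 in the higher group, and from 6.11 to 10.8 CPM with a median of 9.79 in the lower group. The groups overlapped, 3 dogs of the lower group lay above all dogs of the higher one, and the log2 fold change was −0.47 (SE 0.212, unadjusted P = 0.0441, adjusted P = 1 in edgeR). SCD, which makes monounsaturated fatty acids, had medians of 77.1 and 96.7 CPM and a log2 fold change of −0.34 (SE 0.152, unadjusted P = 0.0409, adjusted P = 1). The unadjusted P-value was 0.0911 for ABCG1 without case_06 and 0.104 for SCD without case_11. With 3 dogs against 9 SCD was at −0.11 and ABCG1 at −0.33, with neither P-value under 0.05. ABCG1 was at −0.90 (P = 0.00996) in the high and −0.17 (P = 0.562) in the low small RNA side. Controls were at a median of 10.0 CPM for ABCG1 and 82.6 CPM for SCD. Other targets had intervals that included 0, with ABCA1 at −0.20 (SE 0.243), SREBF1 at −0.12 (SE 0.153) and LPCAT3, a phospholipid-remodelling enzyme, at −0.14 (SE 0.159). Leaving out 1 dog brought ABCA1 to −0.11 (case_02), SREBF1 to −0.04 (case_07) and LPCAT3 to −0.05 (case_05). Over the whole list 9 estimates were positive and the median was 0.07, and the largest was that of APOC1, an apolipoprotein, at 0.84 (SE 0.543), and 0.31 without case_02.

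**Figure D3:**
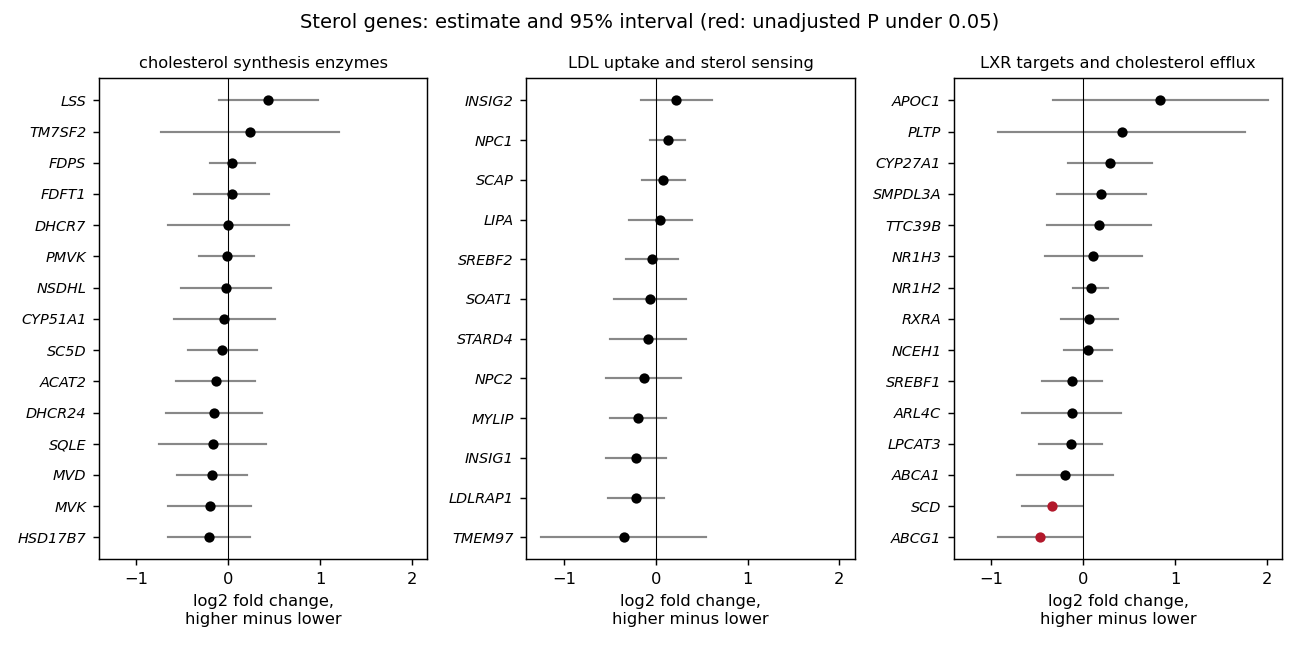
Log2 fold change (higher minus lower cholesterol cases) with its 95% interval for tested genes of 3 lists. These are the cholesterol synthesis enzymes, LDL uptake and sterol sensing, and LXR targets and cholesterol efflux. Red marks an unadjusted P-value under 0.05. Red points are ABCG1 and SCD, at −0.47 and −0.34, and the intervals of all other genes plotted include 0.

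Among scavenger receptors and lipid droplet genes few members stood apart. Of 11 tested genes 9 had positive estimates, with a median of 0.16, and 2 had an unadjusted P-value under 0.05 in opposite directions, beside 2.53% of all genes. PLIN2, which coats lipid droplets, had medians of 63.8 and 54.6 CPM and a log2 fold change of 0.25 (SE 0.114, P = 0.0429, and P = 0.116 without case_09), with controls at 60.6 CPM. OLR1, a receptor for oxidized LDL, had medians of 0.868 and 2.30 CPM and a log2 fold change of −1.06 (SE 0.435, P = 0.0287). The OLR1 estimate was −0.65 (P = 0.295) with log10 triglycerides as a covariate and −0.43 (P = 0.485) with 3 dogs against 9, and it was −0.26 (P = 0.695) in the high and −1.89 (P = 0.00505) in the low small RNA side. PLIN2 was at 0.06 (P = 0.721) with 3 dogs against 9. CD36 was too low to be tested, at no more than 0.321 CPM in any of the 12 dogs. In the list of fatty acid oxidation and PPAR targets 0 of 12 genes had an unadjusted P-value under 0.05, the median was 0.05, and PDK4, which shuts off pyruvate oxidation, had the largest estimate, 1.14 (SE 0.705). It was 0.08 (P = 0.915) with log10 triglycerides as a covariate, 0.08 (P = 0.925) in the high and 1.81 (P = 0.096) in the low small RNA side, and its slope per 100 mg/dl of cholesterol was 0.83 (P = 0.0359).

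Platelet genes were examined because the study had picked several of them out between cases and controls. Of 14 tested platelet markers outside the study's own list 11 had positive estimates, with a median of 0.22, and 0 had an unadjusted P-value under 0.05, while 51.3% of all tested genes had positive estimates. GP1BA, a subunit of the von Willebrand factor receptor, had 126 ± 66.6 CPM (SD, n = 6) in the higher and 88.7 ± 42.3 CPM (SD, n = 6) in the lower group. Its log2 fold change of 0.51 was 0.20 without case_09, at 244 CPM, and −0.20 with the 3 dogs of highest cholesterol against 9. All 15 platelet genes that the study listed from these dogs had positive estimates, with a median of 0.26 and 0 under 0.05 unadjusted, and as genes of 1 cell type they are not independent measurements. The marker score outside the study's list ran from −0.366 to 0.62 in the higher, from −0.752 to 0.546 in the lower and from −1.49 to 0.193 in the control group. The difference between the means of the case groups, 0.219, was smaller than the spread within them (pooled SD 0.455).

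The genes that led the study's case and control comparison were set beside the controls for each case group in turn. The same 18 controls served both comparisons, and the genes were chosen by the study on these dogs. Between the higher cholesterol cases and the controls edgeR called 7 of 16870 genes (0.0415%), and between the lower cholesterol cases and the controls 0 (0%), with 1086 and 760 genes under 0.05 unadjusted. ARHGAP29, a GTPase-activating protein, was among the 7, with a log2 fold change of 2.34 over controls (SE 0.432, adjusted P = 0.0217), against 1.94 (SE 0.435, adjusted P = 0.216) in the lower group. ARHGAP21 was called as well, at 0.66 (SE 0.112, adjusted P = 0.0161), against 0.36 (SE 0.113, adjusted P = 1) in the lower group. The difference between the case groups themselves did not pass for either gene, at 0.41 for ARHGAP29 (SE 0.679, P = 0.554) and 0.32 for ARHGAP21 (SE 0.169, P = 0.0821). Without case_09, whose ARHGAP29 level was 18.4 CPM, ARHGAP29 was at −0.21. Of the 8 leading genes that were tested 7 had positive estimates between the case groups, with a median of 0.29. FZD7, a Wnt receptor, had 0.59 (SE 0.296), with −0.27 (P = 0.43) in the high and 1.24 (P = 0.00268) in the low small RNA side. MMRN1, multimerin of platelets, had 0.43 (SE 0.336), which was 0.08 without case_09. SLPI, a leukocyte protease inhibitor, had the opposite sign, −0.95 (SE 0.599), and −0.46 without case_11. Its estimates over controls were 1.10 in the higher and 2.07 in the lower group. ST6GALNAC4 at 0.13 (−0.01 without case_09), STON2 at 0.26 (0.11 without case_09) and RTN4 at 0.04 completed the list.

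For S1PR5 the higher group lay 2.81 under the controls on the log2 scale (log2 fold change −2.81, SE 0.667, adjusted P = 0.154) and the lower group 0.89 above them (SE 0.475, adjusted P = 1). RIMBP2 was 1.45 above controls in the higher group (SE 0.4) and −0.84 relative to them in the lower group (SE 0.46). For MMP1 the values were −2.38 and 1.94, and for CNN1 0.93 and −0.60. These genes were chosen for their difference between the case groups, so that estimates on opposite sides of the controls follow in part from the choice. Neither case group was called against the controls for any of the 4.

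Markers of immature granulocytes were the list with the lowest median. All 6 tested genes had negative estimates, as did 48.7% of all tested genes, with a median of −0.94. The unadjusted P-value was under 0.05 for 1 member, beside 1.26% of all genes in this direction. CTSG, cathepsin G of azurophil granules, ran from 0.272 to 1.87 CPM in the higher and from 1.18 to 4.73 CPM in the lower group (log2 fold change −1.23, SE 0.456, P = 0.0176, and P = 0.0506 without case_05). MPO, myeloperoxidase, had medians of 2.18 and 4.82 CPM with 25.4 CPM in case_11, and a log2 fold change of −1.52 (SE 0.72, P = 0.0536), which was −0.61 (P = 0.33) without case_11. Controls had medians of 0.734 CPM for CTSG and 0.40 CPM for MPO. With sex as a covariate the estimates were −1.70 (P = 0.000884) and −1.87 (P = 0.00884), both unadjusted, and DESeq2 with this covariate called CTSG (adjusted P = 0.0314). In the high small RNA side CTSG was at −2.35 (P = 0.00623) and MPO at −2.13 (P = 0.000587), and in the low side at −0.52 (P = 0.343) and −1.11 (P = 0.353). The difference between the sides was not tested. With the 3 dogs of highest cholesterol against 9 the 2 genes were at −0.67 (P = 0.319) and −1.30 (P = 0.198). The list score ran from −1.02 to 0.428 in the higher and from −1.23 to 1.65 in the lower group, so that the dogs with the lowest scores were found in both groups.

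Few markers of other cell types and programs passed the unadjusted threshold. For mature neutrophils 2 of 9 markers had positive estimates (median −0.10), and MMP9, a gelatinase, had the largest estimate, −0.65 (SE 0.564), which turned to 0.20 without case_11. Monocyte markers had a median of 0.02, with CD163, a scavenger receptor for hemoglobin, at 0.51 (SE 0.647). CD163 was at 0.02 without case_03, at 2.61 (P = 0.00159) within the high small RNA side and at 1.18 (P = 0.0488) with the side as a covariate. T cell markers had a median of −0.14, with the coreceptor CD8A at −0.48 (SE 0.276), which was −0.97 (P = 0.015) with log10 triglycerides as a covariate and turned to 0.26 with 3 dogs against 9, and B cell markers a median of −0.06, with the adaptor BANK1 at 0.25 (SE 0.182), and 0.08 without case_09. Eosinophil and basophil markers had a median of 0.10, but their signs were split. CCR3 (0.61), IL5RA (0.59) and ALOX15 (0.45) had positive estimates. GATA2 (−0.25), MS4A2 (−0.32) and the mast cell protease CPA3 (−0.75, SE 0.552) had negative ones. Erythroid markers had a median of 0.15 with the glycophorin GYPC at 0.61 (SE 0.308). The GYPC estimate was 0.38 without case_07 and 0.73 (P = 0.0291) with sex as a covariate. Of these 51 markers 0 had an unadjusted P-value under 0.05 in the comparison of all 12 dogs without a covariate. Interferon-stimulated genes had negative estimates for 14 of 15 genes, with a median of −0.14, and MX2, an antiviral GTPase, had −0.38 (SE 0.352), and 0.03 without case_11, again with 0 under 0.05. Inflammatory genes had a median of −0.07, the chemokine CCL4 being at −0.48 (SE 0.477), −1.40 (P = 0.0487) with log10 triglycerides as a covariate and 0.06 with 3 dogs against 9. Among glucocorticoid-responsive genes 1 of 11 had an unadjusted P-value under 0.05, the transcription factor ZBTB16 at 0.97 (SE 0.425, P = 0.0396), while the clock gene PER1 had 1.12 (SE 0.521, P = 0.0504) and the list's median was 0.01. Both estimates rested on single dogs and on the dividing line. ZBTB16 was at 0.46 (P = 0.193) without case_04, and PER1 at 0.23 (P = 0.452) without case_09, whose level was 140 CPM. With the 3 dogs of highest cholesterol against 9, ZBTB16 was at −0.79 (P = 0.181) and PER1 at −0.71 (P = 0.324). PER1 was called by DESeq2 with log10 triglycerides as a covariate (adjusted P = 0.0308), and its estimate was 2.09 (P = 0.0259) in the high small RNA side, which holds case_09, and −0.10 (P = 0.806) in the low side. Over all 19 lists 6 of 209 tested genes had an unadjusted P-value under 0.05, or 2.87%, beside 2.53% of all genes tested.

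**Figure D4:**
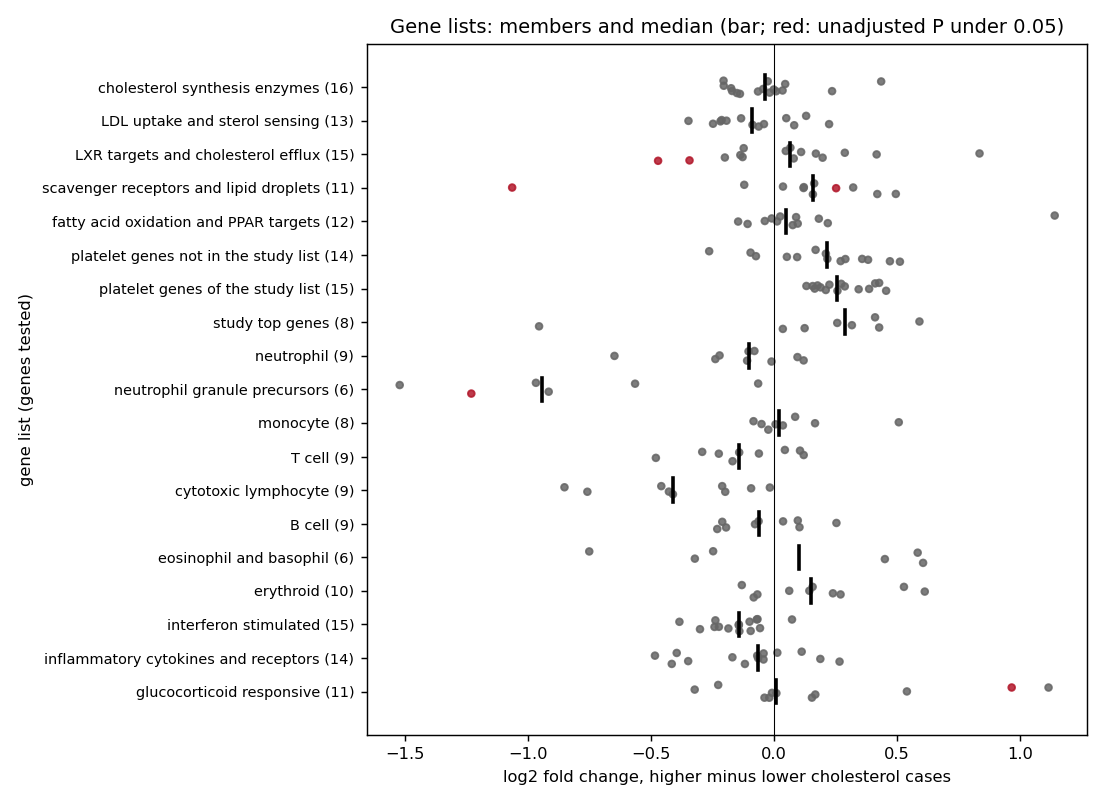
Log2 fold change (higher minus lower cholesterol cases) of each tested member of the 19 gene lists, 1 point per gene with the number tested in parentheses; the bar is the list's median and red marks an unadjusted P-value under 0.05. The medians lie between −0.94 (neutrophil granule precursors) and 0.29 (study top genes), and the 6 red points are spread over 4 lists.

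No separation of the groups was detected on the first 2 principal components. Component 1, from the 500 genes that varied most among the 12 dogs, carried 44% of the variance, and its mean score was 1.59 ± 17.0 (SD, n = 6) in the higher and −1.59 ± 8.44 (SD, n = 6) in the lower group. The difference of 3.18 was smaller than the spread (two-sided exact permutation test, P = 0.684), and so was that of 3.83 on the second component, with 16.3% of the variance (exact permutation test, P = 0.437). The 5 dogs with high small RNA levels had first component scores 17.2 above those of the other 7. The cholesterol groups were mixed within both sides.

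**Figure D5:**
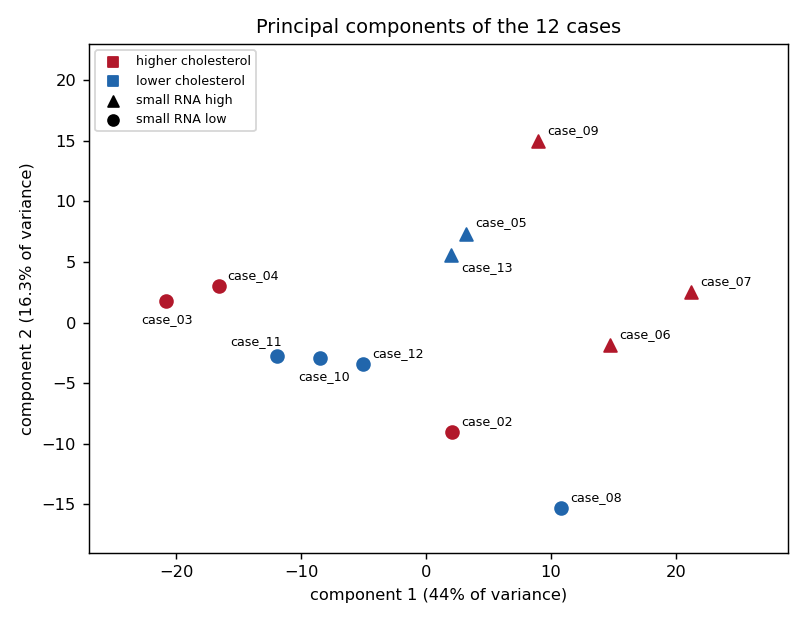
Scores of the 12 cases on component 1 (horizontal) and component 2 (vertical) of the 500 genes that varied most, in red for higher and blue for lower cholesterol, with triangles for dogs with high small RNA levels and circles for the others. The triangles lie to the right of most circles, while red and blue points are intermixed along both axes.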

How the data were processed

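Whole blood RNA of 31 Miniature Schnauzers was sequenced, 1 library per dog. The authors trimmed reads with Trimmomatic, aligned them with HISAT2 and deposited raw counts per gene without normalization. The counting program and annotation are not given in the sources used here. The table has 32704 rows, and the 12 dogs had 16363134 to 34312116 counts each. Group and sex came from the labels, while cholesterol, triglycerides, body condition score and age came from the study's table. They served to divide and describe the cases and as covariates. Dietary fat, from the same source, served only for description. The study used DESeq2 with a batch term, but the pilot batch of each dog is not in the labels, so no batch term was fitted.

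The 6 and 6 cases were compared with glmQLFit and glmQLFTest of edgeR 4.0.16 (R 4.3.3), after TMM normalization and filterByExpr, with Benjamini-Hochberg adjustment and a threshold of 0.05. Alternatives used DESeq2 1.42.0, limma-voom 3.58.1, sva 3.50.0 for a surrogate variable, other normalizations, filters and covariates, and fewer dogs. Log2 CPM had a prior count of 2. Intervals of 95% rest on the moderated degrees of freedom. The edgeR test was also run on simulated counts, with values that are not reported here. Named genes were the 12 with a symbol and the smallest P-values in each direction, set sterol and study genes, and for each gene list the members with an unadjusted P-value under 0.05 and the member with the largest estimate. The dogs' grouping and the gene lists were chosen with earlier results of these data known, and the platelet genes of the study list and the study's top genes had been chosen by the study on these dogs. The list scores and counts have no test of their own. Some named genes are not reported here.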

Additional observations from a re-analysis of the deposited data

Results flagged for a closer look

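Among 134 sets of 6 values (the named genes on the log2 scale, both principal components and the log10 totals, in each cholesterol group), 9 had 1 dog whose gap to the nearest dog took up more of the group's range than Dixon's 95% critical value for 6 dogs. Chance marks about 1 group in 20. In the higher cholesterol group these were ZBTB8OS, lowest in case_07 at 9.81 CPM (gap 0.742 of the range), POC1A, lowest in case_07 at 4.50 CPM (0.762), THTPA, lowest in case_06 at 3.13 CPM (0.699), SGSH, highest in case_03 at 10.0 CPM (0.665), and PER1, highest in case_09 at 140 CPM (0.671). In the lower cholesterol group they were TEP1, highest in case_12 at 25.2 CPM (0.717), TYMS, highest in case_08 at 23.2 CPM (0.635), INSIG1, lowest in case_05 at 11.8 CPM (0.775), and CCL4, lowest in case_11 at 0.667 CPM (0.756). The dogs nearest to the dividing line, case_07 and case_08, were the ones standing apart for ZBTB8OS, POC1A and TYMS.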

How the results depend on the processing

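No paired analysis was possible because the higher and lower cholesterol groups share no dog number. With edgeR and limma-voom 0 genes were called under every alternative run, while DESeq2 called 4 genes, 5 with the small RNA side, 19 with sex, 89 with log10 triglycerides and 6 without case_07 and case_08, the last 4 settings chosen after seeing the data. Genes with an unadjusted P-value under 0.05 numbered 348 in the main setting, 882 without a filter, 576, 529, 639, 782 and 636 in these DESeq2 fits, and 833 within the high small RNA side (5 dogs). Leaving out each dog gave 271 to 653, the highest without case_03. The cause was not tested. The first component's difference ran from −0.557 (without case_07, where it changed sign) to 8.37. The log10 total differed by −0.122 to −0.0742 without 1 dog each, and no longer passed without case_06, case_07, case_09 or case_12, nor without the 20 genes with the highest totals (−0.098, exact permutation test, P = 0.113). For named genes 2352 of the alternative values stayed within 1 SD of the main value, 44 moved further, and 23 were called in DESeq2 fits with the same direction. Of the list medians 697 stayed within 1 SD and 6 did not. The lists' counts of genes were the least stable, with 547 within 1.5 times the main count and 156 outside it. Genes with few counts, such as S1PR5, are limited by depth.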
